A study of Rattus rattus with 8 samples.

Results

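The Arp2/3 complex and a set of genes that control actin filaments were described in rat hair follicles after a simulated blast. The 8 genes were Arpc4, Arpc1a, Arpc1b, Actr2 and Actr3, which encode subunits of the complex, and Actb, Pfn1 and Cfl1, which encode actin and proteins that bind it. They were chosen by a list of RefSeq accessions, and a gene was measured by the probes that carry its accession. The study had selected Arpc4 for qPCR from the genes that differed between blast and sham control on these same arrays. The blast against sham values that selected Arpc4 are therefore given as a description, with no test. All 8 accessions had a probe, and the genes accounted for 9 of the 30367 different probes that were not controls.

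RNA came from whisker follicles, pooled for each rat, of adult male Sprague-Dawley rats, and each rat was hybridized to 1 array with a single dye. Under isoflurane anaesthesia, the head of 5 rats was exposed to a shock wave in a blast simulator. The labels give 145 kPa (21.03 psi) for M2 and M3, 175 kPa (25.4 psi) for H1 and 200 kPa (29 psi) for XH1 and XH3, and 0 kPa for the 3 sham control rats C1, C2 and C3. The rats were observed for a shorter or a longer period before the follicles were pulled, and which rat had which period is not known here, so this period was not used. The labels name the species as Rattus rattus, while the study's rats are Rattus norvegicus. The arrays name probes by accession only. The keratin, fibroblast, muscle and leukocyte markers of the follicle, the other subunits of the complex and its activators and inhibitors could not be named and were not analysed here.

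As background, the Arp2/3 complex binds to the side of an actin filament and starts a new filament there, which builds the branched networks that push out cell edges and drive endocytosis. Actr2 and Actr3 resemble actin itself and form the start of the new branch, Arpc4 is part of the core that holds the complex on the older filament, and Arpc1a and Arpc1b are alternative forms of a subunit that takes part in activation. Profilin, from Pfn1, delivers actin monomers to growing filaments, and cofilin, from Cfl1, severs old filaments and returns monomers to the pool. In skin and hair follicles these proteins serve the shape and movement of keratinocytes and fibroblasts.

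Values are normalized log2 intensities of the brightest probe of a gene, unless stated otherwise. They start from the background-corrected brightness of a spot, made to follow the same distribution on each array by quantile normalization, so that a step of 1 is a doubling. Differences, their standard errors (SE) and adjusted p come from limma, a linear model fitted to all probes, with Benjamini-Hochberg adjustment over all of them. The exact permutation test sets a difference of group means against those of all 56 possible groupings of the rats into 3 and 5, and its smallest possible p is 0.0179. Levels of different genes are not set against each other, because probes differ in how strongly they bind. All 208 spots of these genes over the 8 arrays were well above background, and 0 of them were marked as saturated or as outliers. Repeated spots of a probe differed within an array by a median SD of 0.02 (Actr3) to 0.07 (Pfn1) for the 8 genes, less than the SD between rats of a group. The arrays differed in brightness before normalization, and their median processed signal ranged from 90.9 (C2) to 280.5 (C1). The 8 arrays lay on 1 slide, with C1, C2, M2 and H1 in row 1 and C3, M3, XH1 and XH3 in row 2. Differences of the 8 genes within these rows are given beside the pooled ones. Row 2 holds 1 sham control rat, C3, so every difference within it rests on that rat.

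Arpc4 (NM_001106615) was at 7.95, 7.53 and 7.55 in the sham control rats C1, C2 and C3. In the blast rats it was at 7.97 in M2, 8.27 in M3, 8.15 in H1, 8.41 in XH1 and 8.12 in XH3. The groups did not overlap, but the lowest blast rat, M2, lay only 0.02 above the highest sham control rat, C1. The means were 7.67 ± 0.24 (SD, n = 3) and 8.18 ± 0.17 (SD, n = 5), a difference of 0.51 on the log2 scale or 1.42-fold. Leaving out single rats moved it between 0.43 (without C2) and 0.64 (without C1). Over the array, 290 of the 30217 probes measured in all rats had such a gap in the same direction, or 0.96%, and since the contrast selected Arpc4, nothing is read from its place among them. Before normalization the processed signal of Arpc4 was 484 in C1, 123 in C2 and 144 in C3, and 317, 212, 285, 279 and 236 in M2, M3, H1, XH1 and XH3. On that scale C1, whose array was the brightest, lay above every blast rat. Arpc4 was higher on average after blast in both rows of the slide, by 0.32 in row 1 and by 0.72 in row 2.

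**Figure D1:**
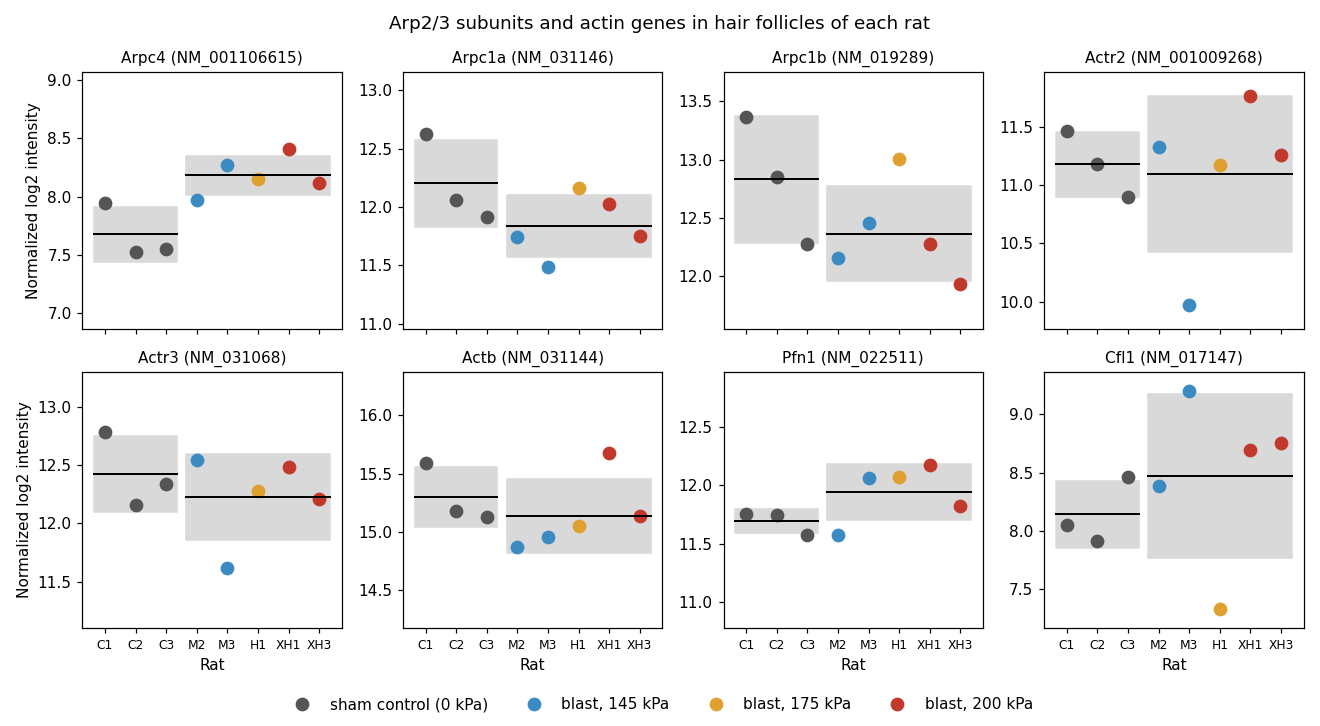
Normalized log2 intensity (vertical axis, with the same span of log2 units in every panel) of the 8 genes in each rat (horizontal axis), with 1 point per rat coloured by shock wave pressure. Lines are the means of the 3 sham control and 5 blast rats and grey bands the mean ± SD. Arpc4 is the gene whose groups do not overlap, with C1 at 7.95 and M2 at 7.97.

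The qPCR assay of the study measured Arpc4 with the pair of primers below, shown because they are the sequences in the sources that belong to the gene selected from the arrays. Its qPCR values were not analysed here, and probe sequences were not used here.
Arpc4 forward primer: gaacgacacaacaagccagag
Arpc4 reverse primer: ccttttccttctcattcctgct

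Arpc1a (NM_031146), an alternative form of the subunit also encoded by Arpc1b, was at 12.62, 12.06 and 11.92 in C1, C2 and C3. The blast rats had 11.74 in M2, 11.49 in M3, 12.17 in H1, 12.02 in XH1 and 11.75 in XH3. Of the 5 blast rats, 3 lay below all sham control rats, and H1 and XH1 lay among them. The mean was 12.20 ± 0.37 (SD, n = 3) in sham control rats against 11.83 ± 0.27 (SD, n = 5) after blast, and the log2 difference was -0.37 (SE 0.22). The difference was within the spread between rats (two-sided exact permutation p = 0.143, limma adjusted p = 0.9999). It depended on single rats, at -0.16 without C1 and -0.51 without C3. A dimmer probe of Arpc1a gave 10.02, 9.79 and 9.67 in the sham control rats and 9.69, 9.86, 10.05, 9.75 and 9.64 in M2, M3, H1, XH1 and XH3. With this probe the log2 difference was -0.03 (SE 0.14, two-sided exact permutation p = 0.821), so that the probes of the gene gave differences of unequal size.

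Arpc1b (NM_019289), whose product takes the same place in the complex, was at 13.37, 12.85 and 12.27 in C1, C2 and C3. The blast rats had 12.15 in M2, 12.45 in M3, 13.01 in H1, 12.28 in XH1 and 11.93 in XH3. M2 and XH3 lay below all sham control rats, and C1 was the highest of the 8 rats. The log2 difference was -0.47 (SE 0.31), from 12.83 ± 0.55 (SD, n = 3) to 12.37 ± 0.41 (SD, n = 5), and did not pass the test (two-sided exact permutation p = 0.268, limma adjusted p = 0.9999). Without C1 it was -0.20 and without C3 it was -0.74. Within rows 1 and 2 of the slide it was -0.53 and -0.05, and the difference of Arpc1a was -0.39 and -0.16.

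The balance of Arpc1a and Arpc1b was followed by the difference of their log2 intensities within an array, of which only the shift between groups is read. Arpc1a minus Arpc1b was -0.74, -0.78 and -0.36 in C1, C2 and C3, and -0.41, -0.97, -0.84, -0.25 and -0.18 in M2, M3, H1, XH1 and XH3. The groups overlapped widely, and the lowest and the highest value both belonged to blast rats. The shift from sham control to blast was 0.10 (two-sided exact permutation p = 0.786), and its sign differed between the rows of the slide, at 0.14 in row 1 and -0.11 in row 2. It was 0.27 with the mean of the probes of Arpc1a (two-sided exact permutation p = 0.179), 0.23 without C3 and 0.01 without XH3. In the gene table of the Rattus rattus assembly Rrattus_CSIRO_v1 the genes named Arpc1a and Arpc1b neighbour each other on a chromosome, with 0 genes starting between them. The table held 0 of the 8 accessions, so the probes were not placed through it.

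Actr2 (NM_001009268), one of the actin-like subunits, was at 11.46, 11.18 and 10.90 in C1, C2 and C3. The blast rats had 11.32 in M2, 9.97 in M3, 11.17 in H1, 11.76 in XH1 and 11.26 in XH3. M3 lay below all other rats and XH1 above them, while the other 3 blast rats lay within the range of the sham control rats. The log2 difference was -0.08 (SE 0.38), from 11.18 ± 0.28 (SD, n = 3) to 11.10 ± 0.67 (SD, n = 5), with a two-sided exact permutation p of 0.875. Its sign turned without M3, to 0.20, and without C1, to 0.06, while without XH1 it was -0.25. It was -0.07 in row 1 of the slide and 0.10 in row 2.

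Actr3 (NM_031068), the other actin-like subunit, was at 12.78, 12.15 and 12.34 in C1, C2 and C3. The blast rats had 12.54 in M2, 11.61 in M3, 12.28 in H1, 12.48 in XH1 and 12.21 in XH3. Again M3 was the lowest rat, and the other 4 blast rats lay within the sham control range. The log2 difference was -0.20 (SE 0.25), from 12.42 ± 0.32 (SD, n = 3) to 12.22 ± 0.37 (SD, n = 5), with a two-sided exact permutation p of 0.518. It was -0.05 without M3, -0.02 without C1 and -0.33 without C2. In rows 1 and 2 of the slide it was -0.06 and -0.23.

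Arpc4 was thus the subunit with a higher mean after blast, while Arpc1a, Arpc1b, Actr2 and Actr3 had lower means that did not pass a test. The mean of these 4 subunits was 12.56, 12.06 and 11.86 in C1, C2 and C3 and 11.94, 11.38, 12.16, 12.13 and 11.79 in M2, M3, H1, XH1 and XH3. Arpc4 minus this mean was -4.61, -4.53 and -4.31 in the sham control rats and -3.97, -3.11, -4.01, -3.73 and -3.67 in the blast rats in the same order. The shift of 0.79 between the groups contains the contrast that selected Arpc4 and was not tested.

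Actb (NM_031144), the actin of non-muscle cells, had a probe with 10 spots on each array. It was at 15.59, 15.18 and 15.12 in C1, C2 and C3, and at 14.87, 14.95, 15.05, 15.68 and 15.14 in M2, M3, H1, XH1 and XH3. M2, M3 and H1 lay below all sham control rats, and XH1 lay above them. The log2 difference was -0.16 (SE 0.21), from 15.30 ± 0.26 (SD, n = 3) to 15.14 ± 0.32 (SD, n = 5), with a two-sided exact permutation p of 0.50. It was -0.014 without C1, -0.30 without XH1 and -0.03 with scaling to the 75th percentile. In rows 1 and 2 of the slide the difference was -0.42 and 0.13.

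Pfn1 (NM_022511), which supplies actin monomers, was at 11.76, 11.75 and 11.57 in C1, C2 and C3. The blast rats had 11.58 in M2, 12.06 in M3, 12.08 in H1, 12.18 in XH1 and 11.82 in XH3. All blast rats but M2 lay above all sham control rats, and M2 lay beside the lowest of them. The mean was 11.69 ± 0.10 (SD, n = 3) in sham control rats against 11.94 ± 0.24 (SD, n = 5) after blast, and the log2 difference was 0.25 (SE 0.16), or 1.19-fold. This did not pass the test (two-sided exact permutation p = 0.125, limma adjusted p = 0.9999). Without M2 the log2 difference was 0.34, with an unadjusted p of 0.0377 in limma and an adjusted p of 0.963, and without C3 it was 0.19. It was 0.07 and 0.45 within rows 1 and 2 of the slide.

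Cfl1 (NM_017147), which severs filaments, was at 8.05, 7.91 and 8.46 in C1, C2 and C3. The blast rats had 8.39 in M2, 9.20 in M3, 7.33 in H1, 8.69 in XH1 and 8.76 in XH3. M3, XH1 and XH3 lay above all sham control rats and H1 below them, so that the blast rats spanned the whole range. The log2 difference was 0.33 (SE 0.40), from 8.14 ± 0.28 (SD, n = 3) to 8.47 ± 0.70 (SD, n = 5), with a two-sided exact permutation p of 0.464. Without H1 it was 0.62, with an unadjusted p of 0.0354 in limma and an adjusted p of 0.906, while without M3 it was 0.15, with an unadjusted p of 0.706 in limma. With slide row as a block it was 0.11. The value was -0.12 in row 1 of the slide, which holds H1, and 0.42 in row 2.

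**Figure D2:**
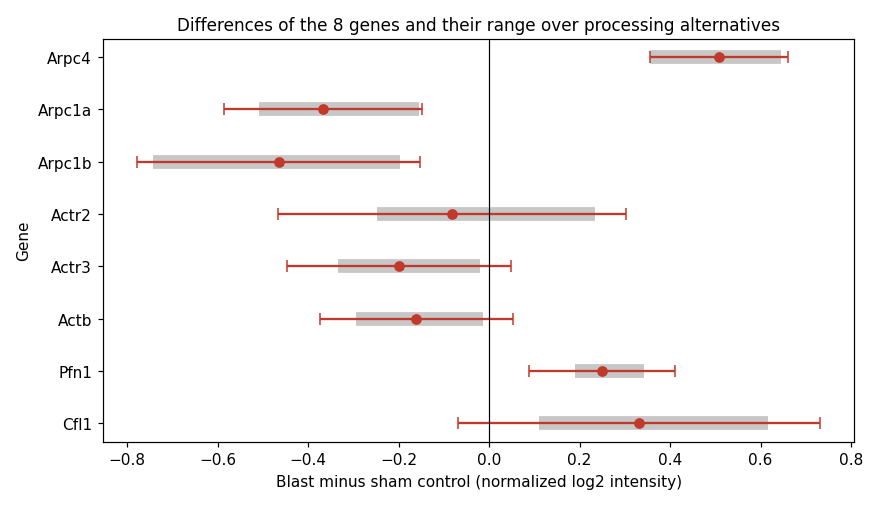
Blast minus sham control in normalized log2 intensity (horizontal axis) for the 8 genes (vertical axis). Red points are the differences with their limma standard error and grey bars the range over the processing alternatives, each rat left out included. Arpc4, selected on this contrast, is at 0.51, the other 7 genes lie between -0.47 (Arpc1b) and 0.33 (Cfl1), and the bar of Actr2 crosses 0.

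Over the 8 genes, 3 had a higher and 5 a lower mean after blast, and the median log2 difference was -0.12, beside 0.00 over all probes. This median turned sign without C1 (0.02), without M3 (0.05) and with array quality weights (0.09). Without XH1 it was -0.26. Of the 7 genes other than Arpc4, the median was -0.16. After Benjamini-Hochberg adjustment in limma, 0 of the 7 genes other than Arpc4 and 0 of 30366 probes, or 0%, had a p under 0.05. At an unadjusted p under 0.05 there were 0 of these 7 genes and 850 of the 30366 probes, or 2.80%. Groups did not overlap for 1 of the 8 genes, Arpc4, which was selected on this contrast, and 0 of the 8 genes had such a gap downward, against 315 of 30217 probes, or 1.04%. RNA from pooled follicles does not tell fewer cells of a type from less RNA per cell, and this holds for each of these genes.

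The genes differed in how much they varied between rats of one group. The pooled SD within groups was 0.19 for Arpc4 and 0.21 for Pfn1, and 7.10% and 9.32% of the 17472 probes well above background on all arrays had a smaller one. The study selected Arpc4 by a test on these arrays, which favours a small spread within groups, so its place is a description. Actb (0.30), Arpc1a (0.31) and Actr3 (0.35) lay below the median SD of 0.39 over these probes. Arpc1b (0.46), Actr2 (0.57) and Cfl1 (0.60) lay above it. By the brightest probes, M3 was the lowest rat for Arpc1a, Actr2 and Actr3 and the highest for Cfl1, while XH1 was the highest for Arpc4, Actr2, Actb and Pfn1, and C1 for Arpc1a, Arpc1b and Actr3. By the dimmer probe of Arpc1a the lowest rat was XH3 and the highest H1.

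Pressure was followed among the 5 blast rats, a contrast that did not select Arpc4. Arpc4 had a mean of 8.12 in the 2 rats at 145 kPa, 8.15 in H1 at 175 kPa and 8.26 in the 2 rats at 200 kPa. Its slope was 0.03 log2 units per 10 kPa (SE 0.04, limma adjusted p = 0.9999), which is within the spread of these rats. Actr2 had the steepest slope, 0.16 per 10 kPa (SE 0.09), with means of 10.65, 11.17 and 11.51 at 145, 175 and 200 kPa, of which the first averages 11.32 in M2 and 9.97 in M3. Actb followed with 0.09 per 10 kPa (SE 0.04) and means of 14.91, 15.05 and 15.41. By the brightest probes the slope was positive for 6 of the 8 genes and negative for Arpc1b and Cfl1, but for Arpc1a the sign turned with the probe, from 0.05 to -0.012 with the dimmer one. By limma, 0 of the 8 genes had an unadjusted p under 0.05, against 860 of the 30236 probes, or 2.84%, and 0 probes passed after adjustment. Without M2 the slope of Actr2 was 0.27, with an unadjusted p of 0.0232 and an adjusted p of 0.306 in limma.

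How the genes varied together was measured over the 8 rats for all 28 pairs. The 7 pairs with Arpc4 contain the contrast that selected it and are given without a test. Of the other 21 pairs, 3 had an unadjusted p under 0.05 and 0 an adjusted p under 0.05 over the 28 pairs, in two-sided exact permutation tests of Pearson's r. Between these 7 genes and all other probes well above background on all arrays, 16.1% of 122297 correlations had an unadjusted p under 0.05, so the 3 pairs are near the share over the array and are not a result about these genes. The actin-like subunits Actr2 and Actr3 had the highest r, 0.85 (exact permutation p = 0.0167, adjusted 0.188), with a Spearman's rho of 0.71 (exact permutation p = 0.0576), and r was 0.61 without M3 and XH1. Arpc1a and Arpc1b had an r of 0.79 (exact permutation p = 0.0156, adjusted 0.188) and a rho of 0.74 (exact permutation p = 0.0458), and r was 0.89 without C1 and M3. With deviations from the group means in place of the values, r was 0.87 for Actr2 and Actr3 and 0.72 for Arpc1a and Arpc1b.

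Arpc1a and Actr3 had an r of 0.73 (exact permutation p = 0.0487, adjusted 0.282) and a rho of 0.38 (exact permutation p = 0.360), and since r was -0.31 without C1 and M3, the relation rested on those rats. The lowest r was that of Arpc1a and Cfl1, -0.68 (exact permutation p = 0.0662, adjusted 0.282), with a rho of -0.76 (exact permutation p = 0.0368) and an r of -0.73 without C1 and M3. Over the 8 rats, r of Arpc4 was 0.79 with Pfn1 (rho 0.86, and r 0.90 without C2 and C3), 0.34 with Cfl1, 0.20 with Actb, and between -0.20 (Arpc1a) and 0.01 (Actr2) with the 4 other subunits. With the dimmer probe of Arpc1a it was 0.21 in place of -0.20. The difference between the groups enters these values. With deviations from the group means, r of Arpc4 was 0.71 with Pfn1, 0.175 with Cfl1, 0.82 with Actb, 0.56 with Arpc1a, 0.48 with Arpc1b, 0.20 with Actr3 and 0.14 with Actr2.

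Among 11625 probes of RefSeq mRNA accessions that were well above background on all arrays, those most like Arpc4 over the 8 rats were NM_001014250, with a Pearson correlation of 0.92, and NM_134399, with 0.91. They were picked as the highest of many and carry no test. NM_001014250 was at 6.86, 6.63 and 6.69 in C1, C2 and C3 and at 7.12, 7.50, 7.23, 7.29 and 7.11 in M2, M3, H1, XH1 and XH3. NM_134399 was at 10.42, 10.32 and 10.17 in the sham control rats and at 10.39, 10.65, 10.47, 10.84 and 10.51 in the blast rats in the same order. In this order Pfn1 stood at place 47, Cfl1 at 1868, Actb at 3220, Actr2 at 5457, Actr3 at 7704, Arpc1b at 8110 and Arpc1a at 8497, or at 3152 by its dimmer probe. The order contains the contrast that selected Arpc4.

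Red cell RNA was followed by Hbb (NM_033234), the beta chain of hemoglobin, which the study also selected for qPCR and which is therefore given without a test. Its brighter probe was at 10.21, 13.96 and 11.64 in C1, C2 and C3 and at 17.42, 13.34, 15.37, 13.31 and 14.43 in M2, M3, H1, XH1 and XH3, a log2 difference of 2.84. It was the 1 marker of another cell type that could be named. M2, the blast rat with the most Hbb, had the lowest Arpc4, Pfn1 and Actb of the blast rats, but also the highest Actr3. C1, the sham control rat with the least Hbb, had the highest Arpc4 of the sham control rats. This was not particular to Arpc4, since C1 was also the highest of them for each of the other genes except Cfl1. Between the groups, Hbb and Arpc4 both had higher means after blast. The part of blood in the differences of the 8 genes was not tested.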

How the data were processed

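The authors read spot intensity from the scans with Feature Extraction (Agilent, version 10.7.1.1 per the file headers), which subtracts the background. The authors also deposited log2 values, quantile normalized over the 8 arrays, which served as an alternative. Control spots and outlier spots were dropped, the other spots of each probe were averaged as log2, and the 8 arrays were quantile normalized on the linear scale with a lower limit of 3 before log2 was taken again. All probes were fitted with limma 3.58.1 (lmFit, eBayes) in R 4.3.3, with Benjamini-Hochberg adjustment over all probes tested. A probe needed values for 2 or more rats per group, and for the trend a value in every rat used. The fit was tested on simulated data. Single genes were also compared by exact permutation of the rats (two-sided), and correlations by exact permutation of their pairings. No p is given for Arpc4 and Hbb between blast and sham control, since both were selected on it.

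The members and lists were chosen with earlier results of these data known. The genes named were the 8 members, Hbb and the 2 accessions most like Arpc4. Symbols came from the list that defines the genes, and for Arpc4 and Hbb also from the study's primers. Lists of other actin genes and of cell type markers were not analysed here, because the gene table held 0 of the array's 16175 RefSeq mRNA accessions and the primers named 1 of the listed genes, Hbb. All arrays lay on 1 slide, and the number of arrays, 3 and 5, limits the precision. Alternatives covered normalization, lower limit, background, dim probes, outlier spots, slide position, title number, array weights and each rat left out.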

Additional observations from a re-analysis of the deposited data

How the results depend on the processing

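The number of the 7 genes other than Arpc4 at an unadjusted p under 0.05 between blast and sham control was 0. Arpc4 is not counted, since it was selected on this contrast. Its log2 difference was 0.49 with scaling to the 75th percentile. When the title number entered as a replicate block, Arpc1a passed this limit at a log2 difference of -0.39 (unadjusted p = 0.0304 and adjusted p = 0.9999 in limma). With single rats left out, Pfn1 passed it without M2 and Cfl1 without H1. The number of genes whose groups did not overlap was 1 and ranged from 1 to 2 with each rat left out, with Pfn1 joining without M2. For the trend with pressure the number of the 8 genes at an unadjusted p under 0.05 was 0. It was 1 with all 8 rats (Arpc4, for which the sham control rats bring in the contrast that selected it) and 1 when the title number entered as a replicate block (Actr2), and it ranged from 0 to 1 with each rat left out. Among the blast rats M2 alone has the title number 2, so in the trend this block fits M2 exactly. The slope then has M3 as its only rat at 145 kPa, as it does without M2, where Actr2 was also the gene called. For all of these changes, the cause was not tested.

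Whether the title numbers pair the rats is not known here. Over probes, deviations from the group means had correlations from -0.57 (C2 and M2) to 0.50 (C1 and XH1) for rats of the same number. With so few rats these correlations cannot decide it, and the block is given only as an alternative. C1 and C2 correlated best with rats of another number (0.51 with M2 and 0.60 with H1), and C3 with one of its own (0.29 with XH3). The block changed no other call.

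Actr2 changed sign, to 0.23 with array quality weights, 0.046 when slide side was a block and 0.00069 when slide row was a block. With each rat left out it ranged from -0.25 to 0.20, and was 0.06 without C1 and 0.20 without M3. The cause was not tested. Of the 147 comparisons of the 7 other genes over the alternatives, 139 kept direction and side of the threshold, and the lowest limma adjusted p was 0.906. The difference of Arpc4 lay between 0.36 and 0.64, the median over the 8 genes between -0.26 and 0.09, and the shift of Arpc1a minus Arpc1b between 0.01 (without XH3) and 0.27 (mean of the probes of Arpc1a). No pair of genes had an adjusted p under 0.05 under any of the 4 alternatives run for correlations, of which adjustment over the 21 pairs without Arpc4 was chosen after the data were seen. Blocks and weights give no value for groups that do not overlap, and weights none for the exact test of the balance. All spots of these genes were well above background. The lowest difference of Arpc4, 0.36, came with the alternative for background (normexp on the median signal). The part of background in this was not tested.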
